A study of Mus musculus with 6 samples.

Results

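The genes described here are 9 genes of retinol and alcohol metabolism in mouse liver: the alcohol dehydrogenases Adh1 and Adh4, the retinol dehydrogenases and related reductases Rdh7, Rdh11, Rdh16 and Dhrs4, the aldehyde dehydrogenases Aldh1a1 and Aldh1a7, and the plasma carrier Rbp4. They were taken by gene symbol from the 30889 genes of the deposited table, and all 9 passed the filter on low counts that left 18071 genes for testing. RNA was sequenced from the livers of mice treated by mouth for 14 days, 3 libraries with phosphate buffered saline (control) and 3 with a water extract of the herb Emilia sonchifolia (extract). Strain, sex and age are not given in the sources used here, and the labels name no genetic change in either group. Whether the 3 libraries of a group come from 3 different mice is not stated, and the p-values below refer to the spread among libraries, part of which may be technical.

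Vitamin A reaches the liver as retinyl esters, is stored mainly in stellate cells, and leaves it as retinol bound to RBP4 in plasma. Within cells, alcohol dehydrogenases and short-chain retinol dehydrogenases oxidise retinol to retinal, reductases turn retinal back, and ALDH1A enzymes oxidise retinal to retinoic acid, the ligand of the nuclear retinoic acid receptors. The same alcohol and aldehyde dehydrogenase families clear ethanol and its product acetaldehyde in hepatocytes.

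Levels are given as FPKM, a unit scaled for gene length and for the fragments of the library, and the libraries held 51219533 to 61432016 estimated counts. Albumin (Alb), the main secreted protein of hepatocytes, was at 25373 to 33353 FPKM. Control 3 stood apart from the other controls: the pancreas gene Ctrb1 was at 21.6 FPKM there and at 0.00 and 0.245 in controls 1 and 2, while the muscle gene Acta1 was at 0.216 against 49.7 and 38.4. In the extract libraries Ctrb1 was at 20.6 to 24.3 FPKM and Acta1 at 38.6 to 69.1. Of 10 marker genes of pancreas, muscle and gut, 0 rose and 1 fell. Markers of other cells moved with the groups. By the test given below, 14.2% of all genes tested rose and 12.8% fell. The summed level of 11 Kupffer cell markers was 496 to 522 FPKM in control and 297 to 313 in extract, that of 7 red cell markers 1272 to 1617 and 198 to 236, and that of 12 blood leukocyte markers 129 to 234 and 41.8 to 54.1. Of these lists, 11 of 11, 7 of 7 and 10 of 12 markers fell, and no marker in them was at 0 in all libraries. Of 10 markers of sinusoidal endothelial cells, 6 fell and 0 rose, with sums of 59.2 to 66.6 FPKM in control and 46.4 to 48.6 in extract. Of 6 bile duct markers, 1 fell and 0 rose. The 10 hepatocyte markers split, with 4 higher and 4 lower. Of 12 markers of stellate cells, the cells that store vitamin A, 1 rose and 1 fell, and their summed level was 88.8 to 116 FPKM in control and 92.7 to 96.2 in extract. The part of these differences in the values of the 9 genes was not tested, and in whole tissue fewer cells of a type and less RNA per cell cannot be told apart.

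Of the 9 genes, 5 rose with the extract (Adh1, Adh4, Rdh11, Aldh1a1 and Aldh1a7), 1 fell (Rdh7) and 3 did not pass the test (Rdh16, Dhrs4 and Rbp4). A gene was called at an adjusted p under 0.05 in edgeR's quasi-likelihood test, adjusted over all genes tested, and by that rule 26.9% of all genes tested were called, 14.2% higher and 12.8% lower. All 9 genes averaged above 5 FPKM, a level at which calls were more common. In an edgeR fit of the 4882 genes with a mean of at least 5 FPKM, 1288 were called higher and 1219 lower. The median log2 fold change was 0.43 over the 9 genes and -0.02 over all genes tested. The rises ran from 1.35-fold to 1.92-fold and the fall was a factor of 0.910. These folds are from counts as edgeR scales them, and the ratio of mean FPKM was lower for each of the 9 genes. It was 0.873 for Rdh7, and for Rbp4 it was 1.03 against an edgeR fold of 1.07. Without control 3, 6 of the 9 genes were called higher, Rbp4 being the added one, and 1 lower. For 8 of the 9 genes, all but Rdh16, control and extract values in FPKM had no overlap, which was so for 44.6% of all genes tested. That share covers genes of all levels and was not taken for genes above 5 FPKM.

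Among the genes that rose, Aldh1a1 and Aldh1a7 are close neighbours and share a stretch of promoter sequence. The bases are from the RefSeq promoter table on GRCm38.p6, in which all 9 genes had an entry, and each run is the 250 bases before a transcription start, 5′ to 3′ on the gene's strand. The windows of this pair of genes, which lie on chromosome 19 with 49.5 kb between them, are shown first, because both rose and the capitals mark a run of 65 bases that is identical in the pair and lies 94 to 30 bases before each start. Aldh1a1 is read on the plus strand at chr19:20601718-20601967, before the downstream of its RefSeq starts. That start is 109253 bases from the deposited gene start, against 132 for the other start of Aldh1a1. Aldh1a7 is read on the minus strand at chr19:20727557-20727806.
Aldh1a1: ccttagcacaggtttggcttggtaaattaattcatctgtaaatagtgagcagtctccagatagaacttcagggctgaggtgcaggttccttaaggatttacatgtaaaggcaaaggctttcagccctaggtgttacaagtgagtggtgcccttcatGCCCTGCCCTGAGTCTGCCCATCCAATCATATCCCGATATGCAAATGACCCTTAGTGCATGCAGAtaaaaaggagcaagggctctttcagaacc
Aldh1a7: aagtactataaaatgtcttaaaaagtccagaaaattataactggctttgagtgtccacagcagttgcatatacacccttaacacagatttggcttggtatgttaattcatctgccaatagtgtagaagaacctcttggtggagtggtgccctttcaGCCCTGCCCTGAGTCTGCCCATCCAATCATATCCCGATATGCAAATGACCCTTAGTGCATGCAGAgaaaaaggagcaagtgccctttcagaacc

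The whole windows of this pair were identical at 185 of 228 aligned bases (81.1%, gaps left out). For the other 77 pairs of the 13 start windows of the 9 genes this share was 58.9% to 80.1%, so it sets the pair little apart, but their longest shared run was 12 bases. The shared run holds CCAAT, the motif of the CCAAT box, and ATGCAAAT, the octamer motif, at the same place in both genes. Searched on both strands of the 250 bases before each start, ATGCAAAT was in 1.60% of 32851 mouse start windows and CCAAT in 33.9%. A match describes the letters only.

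Adh4 and Rdh11 are shown next, because they had the largest rises of the 9 genes, with capitals for the motifs found. Beside CCAAT and ATGCAAAT, 3 motifs were searched on both strands. TATAAA is the TATA box, found in 12.4% of all start windows and in 3 of the 13 windows of these genes. The others were AGGTCA, the core of many nuclear receptor sites, those of retinoic acid receptors among them, and CACGTG, an E box. Adh4 is read on the plus strand at chr3:138415247-138415496 and Rdh11 on the minus strand at chr12:79190962-79191211, before the downstream of its RefSeq starts.
Adh4: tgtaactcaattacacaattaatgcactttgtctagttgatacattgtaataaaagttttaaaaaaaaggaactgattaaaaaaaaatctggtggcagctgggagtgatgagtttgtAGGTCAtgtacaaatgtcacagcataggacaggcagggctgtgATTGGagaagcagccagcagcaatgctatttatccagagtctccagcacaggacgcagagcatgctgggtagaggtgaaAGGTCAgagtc
Rdh11: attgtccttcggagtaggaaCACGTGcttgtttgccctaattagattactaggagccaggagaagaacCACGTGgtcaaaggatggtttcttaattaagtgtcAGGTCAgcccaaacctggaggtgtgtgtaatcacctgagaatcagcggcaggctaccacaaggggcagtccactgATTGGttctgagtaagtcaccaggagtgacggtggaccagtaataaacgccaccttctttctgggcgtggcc

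The Adh4 window holds AGGTCA at 2 places and CCAAT on the other strand at 1. The Rdh11 window holds CACGTG at 2 places, AGGTCA at 1 and CCAAT on the other strand at 1. AGGTCA was in 14.0% of all start windows and in 4 of the 13 windows of these genes, and CACGTG in 6.02% and in 1 of the 13. Besides Adh4 and Rdh11, the windows with AGGTCA were 1 of Rdh7, which fell, and that of Rdh16, which was not called. The window before the RefSeq start of Adh1, the gene with the smallest p, which is 16594 bases from its deposited gene start, held none of the 5 motifs. Nor did the window of the other RefSeq start of Rdh11, which lies nearer the gene start of the table (438 bases from it, against 1332), or that of the other start of Aldh1a1, which shared a run of at most 8 bases with Aldh1a7.

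**Figure D1:**
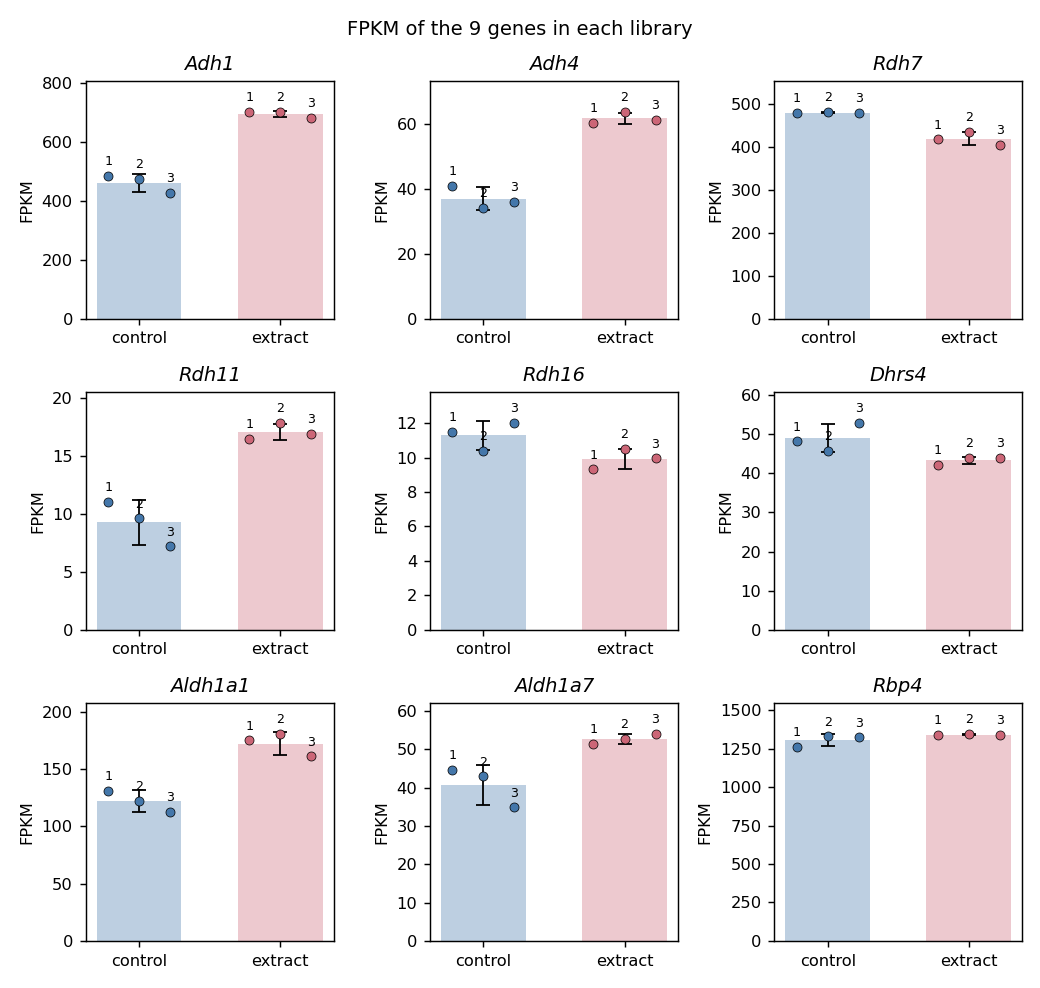
FPKM of the 9 genes in each of the 6 libraries. Points are libraries, numbered by replicate, bars are group means and error bars are SD (n = 3). Every extract library lies above every control library for Adh1, Adh4, Rdh11, Aldh1a1, Aldh1a7 and Rbp4 and below for Rdh7 and Dhrs4, and control 3 is the lowest of all libraries for Adh1, Rdh11, Aldh1a1 and Aldh1a7.

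Adh1 is the class I alcohol dehydrogenase, the main ethanol-oxidising enzyme of liver, which also oxidises retinol (ENSMUSG00000074207, GRCm38 chromosome 3, gene span 138260991 to 138290698). The control libraries, in the order of their numbers, held 485, 475 and 428 FPKM of Adh1 and the extract libraries 703, 702 and 683. All extract libraries were above all controls, and the controls were more spread. The rise was 1.57-fold, or 0.65 ± 0.05 as log2 with its SE (adjusted p = 7.43e-05, edgeR), and 0.61 without control 3. Adh4, the class II enzyme, which acts on retinol and on longer alcohols (ENSMUSG00000037797, chromosome 3, gene span 138415466 to 138424028), was at 40.9, 34.0 and 36.0 FPKM in control and at 60.3, 63.7 and 61.2 in extract. Its extract values sat within a few FPKM of each other and well above the controls. The rise was 1.74-fold, or 0.80 ± 0.07 as log2 with its SE (adjusted p = 0.000180, edgeR), and 0.79 without control 3. The level of Adh1 over that of Adh4 was 11.9 to 14.0 in control and at most 11.7 in extract, so on this scale, which accounts for length, Adh1 was the more abundant transcript in every library. Adh1 and Adh4 together went from 499.5 ± 32.1 to 758 ± 11.5 FPKM (SD, n = 3).

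These genes lie in a cluster of alcohol dehydrogenase genes on chromosome 3, all on the plus strand. Their neighbours, taken as relatives within 500 kb, gave mixed values. Adh7, the class IV enzyme known mostly from stomach, rose from 4.60 ± 0.238 to 5.53 ± 0.332 FPKM (edgeR adjusted p = 0.00978, and 0.0566 with limma on log2(FPKM + 0.5) with no filter on low values). Adh5, the class III enzyme that handles formaldehyde bound to glutathione, starts 19.1 kb past the deposited end of Adh4. In the GENCODE M21 annotation Adh4 ends later, at 138430892, so the gap is smaller there. Adh5 was at 47.6 ± 2.34 and 47.3 ± 2.36 FPKM (log2 fold change 0.05, adjusted p = 0.465 in edgeR, and -0.01 with limma on log2(FPKM + 0.5)). Adh6a, Adh6b and the pseudogene Adh6-ps1, which sit between Adh1 and Adh4, were under 0.3 FPKM on average in both groups and did not pass the test. Of the 4 alcohol dehydrogenase genes other than Adh1 and Adh4, 1 rose and 0 fell, with 3 not called. That is a share of 25% called, against 26.9% of all genes tested. Over the 6 genes of the family, Adh1 held 83.8% of the summed FPKM in control and 85.8% in extract, on average.

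**Figure D2:**
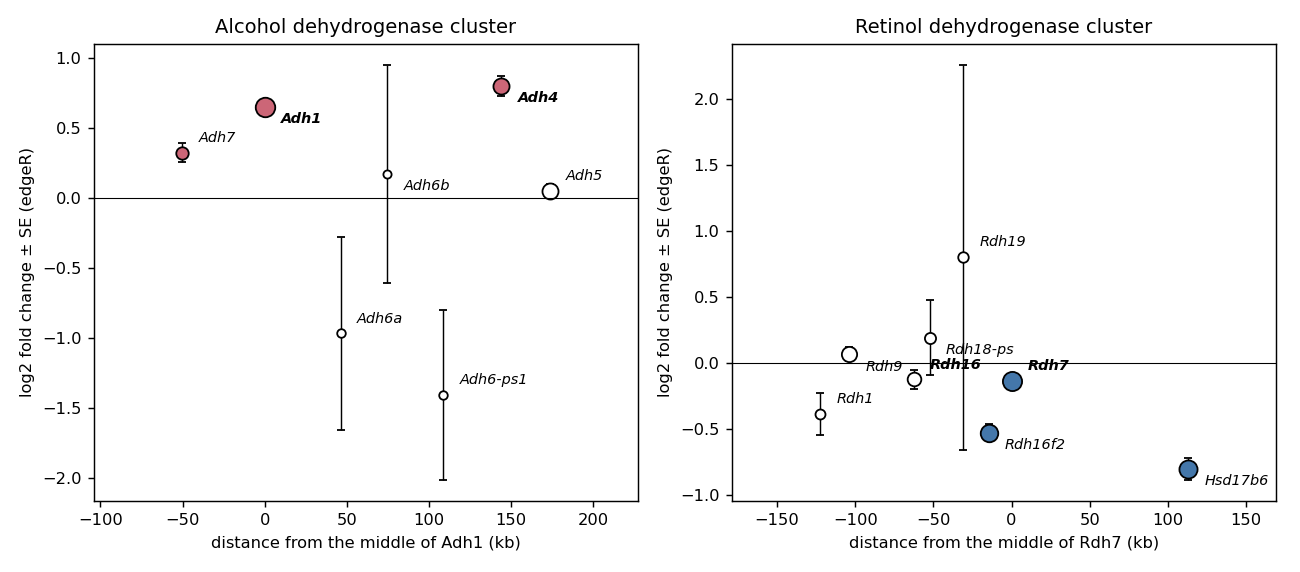
Relatives within 500 kb of the 9 genes in the alcohol dehydrogenase cluster (left) and the retinol dehydrogenase cluster (right). The x axis is the distance of each gene's middle from that of Adh1 or Rdh7 in kb, the y axis the edgeR log2 fold change ± SE, point size rises with mean FPKM, and red, blue and white mark genes called higher, called lower and not called. Adh1, Adh4 and Adh7 lie above 0 and Adh5 at 0.05, while Rdh7, Rdh16f2 and Hsd17b6 lie below 0. The other genes were not called: on the left Adh6a (-0.97) and Adh6-ps1 (-1.41) lie below 0 and Adh6b above. On the right Rdh1 and Rdh16 lie below 0, and Rdh9, Rdh18-ps and Rdh19 (0.80) above.

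The retinol dehydrogenases moved in both directions. Rdh11, a microsomal enzyme that interconverts retinol and retinal (ENSMUSG00000066441, chromosome 12, gene span 79174337 to 79192293), was at 11.01, 9.59 and 7.18 FPKM in control and at 16.4, 17.8 and 16.9 in extract. The controls were widely spread, with control 3 lowest, and all lay below the extract libraries. Its rise of 1.92-fold, or 0.94 ± 0.13 as log2 with its SE (adjusted p = 0.00162, edgeR), was the largest of the 9 genes, and it was 0.80 without control 3. Rdh7, a liver enzyme that oxidises retinol and some steroids (ENSMUSG00000040134, chromosome 10, gene span 127884028 to 127888817), was at 479, 480 and 479 FPKM in control and at 417, 434 and 404 in extract. The controls were almost the same and every extract library was lower. It fell by 0.14 ± 0.04 as log2 with its SE (adjusted p = 0.0237, edgeR). That call was lost without control 2 (edgeR adjusted p = 0.0543), extract 1 (0.145), extract 2 (0.0525) or extract 3 (0.1002), and held without control 3 (-0.13, adjusted p = 0.0327).

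Rdh16, a close relative of Rdh7 with the same kind of substrates (ENSMUSG00000069456, chromosome 10, gene span 127801152 to 127846565), was at 11.5, 10.4 and 11.99 FPKM in control and at 9.31, 10.5 and 9.95 in extract. The groups overlapped, since extract 2 was above control 2, and the difference of -0.13 ± 0.07 as log2 with its SE did not pass (adjusted p = 0.239, edgeR) and was -0.07 without control 3. Dhrs4, a peroxisomal reductase of retinal and other carbonyls (ENSMUSG00000022210, chromosome 14, gene span 55478758 to 55490340), was at 48.2, 45.8 and 52.8 FPKM in control and at 42.2, 43.9 and 43.9 in extract. Every extract value was below every control value, by little, and the difference of -0.11 ± 0.06 as log2 with its SE did not pass (adjusted p = 0.229, edgeR). Without control 3, the highest control, it was -0.05. These 4 enzymes together were at 549 ± 2.35 FPKM in control and 488 ± 16.2 in extract (SD, n = 3), most of it Rdh7. Rdh7 and Adh1 were at like levels in control, and in extract Adh1 was above Rdh7 in all 3 libraries. Rdh7 was 43.5 to 66.7 times Rdh11 in control and 23.9 to 25.3 times in extract.

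Rdh7 and Rdh16 lie 37.5 kb apart in a cluster of relatives on chromosome 10, where 2 other genes, Hsd17b6 and Rdh16f2, fell. Hsd17b6, which acts on steroids and has retinol dehydrogenase activity, was at 242, 243 and 299 FPKM in control and at 141, 148 and 142 in extract. It fell by 0.80 ± 0.08 as log2 with its SE (adjusted p = 0.000398, edgeR), and by 0.69 without control 3, its highest library. Rdh16f2, a member of the Rdh16 family 6.71 kb from Rdh7, went from 155 ± 16.1 to 103 ± 3.59 FPKM (SD, n = 3, edgeR adjusted p = 0.000862). Both were abundant and showed no overlap between groups. Rdh9, next to Rdh16, was at 28.3 ± 1.42 and 28.4 ± 1.43 FPKM (edgeR adjusted p = 0.419). Rdh1, Rdh19 and the pseudogene Rdh18-ps averaged under 2.5 FPKM and did not pass. Rdh19 was at 0 in control 1 and in extract 2 and at 1.67 to 3.06 FPKM in the other libraries. The cause of that pattern was not tested.

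Genes of this cluster are close in sequence. The coding sequences of Rdh7 and Rdh16 were identical at 88.6% of aligned bases. Of all 50-base windows in the coding sequence, 23.4% for Rdh7 and 44.6% for Rdh16 also occur in a transcript of another gene, most often Rdh18-ps for Rdh7 and Rdh9 for Rdh16. The handling of such reads in counting is not known from the labels, so the values of both are uncertain. Rdh18-ps also lies inside the gene span of Rdh16. Adh1 shared 4.37% of its windows, while Adh4, Rdh11, Dhrs4 and Rbp4 shared 0.

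Aldh1a1, the main cytosolic enzyme that turns retinal into retinoic acid in adult liver (ENSMUSG00000053279, chromosome 19, gene span 20492715 to 20643465), was at 131, 122 and 113 FPKM in control and at 175, 181 and 161 in extract. The lowest extract library was well above the highest control. The rise was 1.47-fold, or 0.56 ± 0.06 as log2 with its SE (adjusted p = 0.000445, edgeR), and 0.51 without control 3. Aldh1a7, a close relative that oxidises other aldehydes (ENSMUSG00000024747, chromosome 19, gene span 20692953 to 20727562), was at 44.6, 42.9 and 34.8 FPKM in control and at 51.3, 52.7 and 53.9 in extract. Control 3 was again the lowest library. The rise was 1.35-fold, or 0.43 ± 0.08 as log2 with its SE (adjusted p = 0.00721, edgeR), and 0.34 without control 3. The level of Aldh1a1 over that of Aldh1a7 was 2.85 to 3.24 in control and 2.99 to 3.43 in extract, ranges that overlap. The coding sequences of the pair were identical at 92.3% of aligned bases, and 10.4% of the 50-base windows of each occur in the other, so the values of both are uncertain in the same way. The pair lies in a sparse region: only 2 other genes tested are within 500 kb of either, of which 0 rose and 1 fell.

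Rbp4, which carries retinol from the liver in plasma (ENSMUSG00000024990, chromosome 19, gene span 38116629 to 38125281), was the most abundant of the 9 genes. It was at 1261, 1330 and 1324 FPKM in control and at 1343, 1344 and 1339 in extract. The extract libraries lay just above controls 2 and 3. The difference of 0.10 ± 0.04 as log2 with its SE did not pass (adjusted p = 0.0729, edgeR), but it did without control 3 (0.12, adjusted p = 0.0353) and with DESeq2 (0.11, adjusted p = 0.0262). Ttr, transthyretin, which binds RBP4 in plasma and is also in the hepatocyte marker list, went from 3761 ± 352 to 3150 ± 75.3 FPKM and fell by 0.19 ± 0.06 as log2 with its SE (adjusted p = 0.0446, edgeR). That call was lost in each fit that left out a library other than control 3 (adjusted p = 0.0948 to 0.162) and held in 10 of the 19 alternatives tried.

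**Figure D3:**
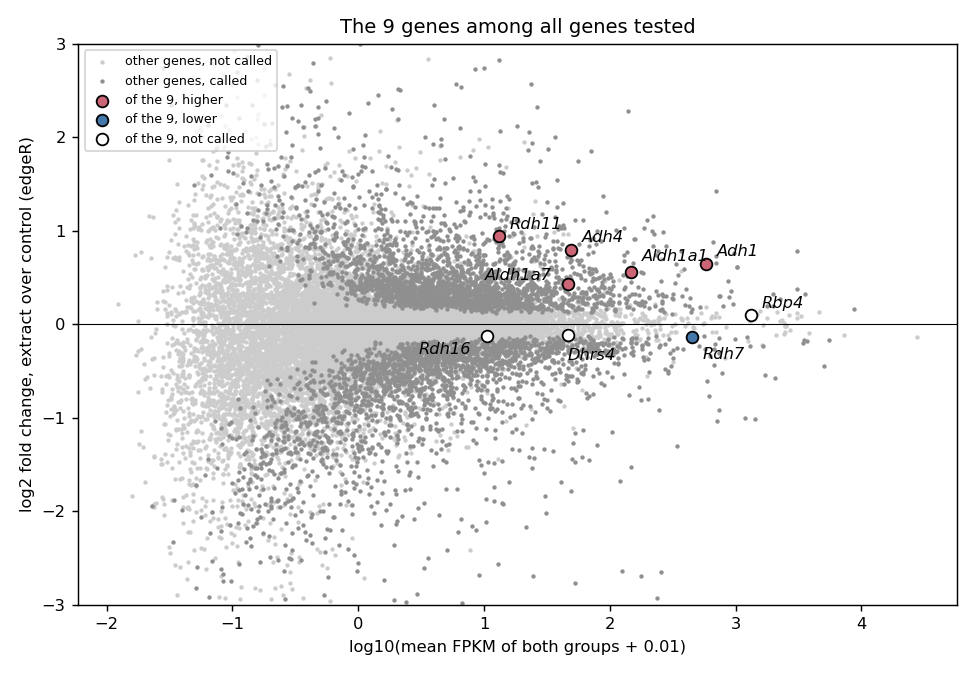
The 9 genes among the 18071 genes tested. The x axis is log10 of the mean FPKM of both groups plus 0.01, the y axis the edgeR log2 fold change of extract over control, dark and light grey mark other genes called and not called, and 109 genes beyond 3 on the y axis are not shown. The 5 genes that rose lie between 0.43 and 0.94, and Rdh7, which fell, lies at -0.14 among genes of high level.

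The other genes of the pathway were taken from lists by function. Of all genes tested, 26.9% were called. The share called was 23.5% for the other retinol dehydrogenases and relatives and 31.6% for the other aldehyde dehydrogenases. For ethanol and acetate oxidation it was 25%, for ester storage and related steps 43.8%, and for retinoic acid clearance 66.7%. It was 16.7% for the receptors and 20% for the carriers. Of 17 tested retinol dehydrogenases and relatives outside the 9 genes, 2 rose and 2 fell, with a median log2 fold change of 0.05. The genes that rose were Dhrs1 (24.01 ± 1.19 to 29.0 ± 0.677 FPKM) and Dhrs7 (6.37 ± 0.896 to 8.19 ± 0.563), reductases of the same family with broad or uncertain substrates. Dhrs7 lost its call without control 2 (edgeR adjusted p = 0.0653), extract 1 (0.0506) or extract 2 (0.0675), and with limma on log2(FPKM + 0.5) with no filter on low values (0.1002). Of 19 other aldehyde dehydrogenases, 5 rose and 1 fell, with a median of 0.03. Those that rose belong mostly to the breakdown of amino acids and fatty aldehydes: Aldh6a1, Aldh8a1, Aldh3a2, Aldh4a1 and Aldh5a1, with log2 fold changes of 0.20 to 0.39. Of 19 alternatives, Aldh6a1 and Aldh8a1 were called in 19, Aldh3a2 in 17, Aldh4a1 in 13 and Aldh5a1 in 8, with adjusted p up to 0.0699, 0.153 and 0.156 for the last 3. Aldh8a1, which can oxidise the 9-cis form of retinal, went from 48.5 ± 0.228 to 53.2 ± 1.11 FPKM. Aldh16a1 fell by 0.25 on the log2 scale, a call lost without extract 2 (edgeR adjusted p = 0.0526). Aldh2, the mitochondrial enzyme that clears most acetaldehyde, was at 245 ± 20.7 and 248 ± 3.999 FPKM (edgeR adjusted p = 0.325).

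In the list of other steps of ethanol and acetate oxidation, 2 of 8 genes rose and 0 fell. Cyp2e1, the P450 enzyme that oxidises ethanol in microsomes, rose from 1797 ± 81.6 to 2165 ± 64.5 FPKM (0.33 ± 0.04 as log2 with its SE, adjusted p = 0.00123 in edgeR), a call lost with limma on log2(FPKM + 0.5) with no filter on low values (adjusted p = 0.0743). Acss2, which makes acetyl-CoA from acetate in the cytosol, rose from 7.71 ± 1.65 to 11.2 ± 0.357 FPKM, a call lost in the same limma fit (adjusted p = 0.0813) and without extract 2 (edgeR adjusted p = 0.0532). Catalase (Cat), a peroxisomal route for ethanol, was at 551 ± 61.9 and 603 ± 21.04 FPKM with overlapping groups and was not called (edgeR adjusted p = 0.0905).

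Genes for retinyl ester storage and hydrolysis, carotenoid cleavage and retinol saturation gave 5 higher and 2 lower of 16 tested. The carboxylesterases Ces1d, Ces1g and Ces1f, which can hydrolyse retinyl esters and belong to a family of related genes, rose 1.99-fold, 2.17-fold and 1.71-fold. Ces1e, of the same family, rose less, 1.19-fold, from 29.4 ± 1.61 to 33.6 ± 0.385 FPKM (edgeR adjusted p = 0.00529). How much sequence these carboxylesterases share was not measured here. Ces1d was at 195, 185 and 169 FPKM in control and at 355, 359 and 333 in extract. Retsat, which saturates a bond of retinol, was at 7.80, 7.57 and 5.48 FPKM in control and at 3.63, 3.30 and 3.41 in extract. It fell by 0.95 ± 0.13 as log2 with its SE (adjusted p = 0.00122, edgeR), and by 1.09 without control 3. Dgat1, which can esterify retinol, fell by 0.41. Lrat, the main retinol-esterifying enzyme of stellate cells, was at 2.01 ± 0.185 and 2.16 ± 0.213 FPKM and did not pass (edgeR adjusted p = 0.275).

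At the retinoic acid end of the pathway, 3 of the 4 clearance genes were tested, of which 1 rose and 1 fell. Cyp2c39, a P450 enzyme of liver that hydroxylates retinoic acid and has close relatives, was at 217, 194 and 208 FPKM in control and at 354, 352 and 357 in extract. The sequence it shares with them was not measured here. Its rise of 1.79-fold left no overlap (0.84 ± 0.05 as log2 with its SE, adjusted p = 3.18e-05 in edgeR). Cyp26b1, a retinoic acid hydroxylase of low level in these samples, was at 0.909, 0.820 and 0.782 FPKM in control and at 0.256, 0.173 and 0.172 in extract, and fell by 1.99 ± 0.20 as log2 with its SE (adjusted p = 0.000341, edgeR). With limma the log2 fold change of Cyp26b1 was -1.65, -0.93 and -0.61 with 0.1, 0.5 and 1 added to the FPKM, a scale that understates the change of low genes, and it was called in each. Cyp26a1, the form that retinoic acid is known to induce in liver, was at 1.85 ± 0.0795 and 2.05 ± 0.305 FPKM and did not pass (edgeR adjusted p = 0.353). Of 6 retinoid receptors 1 rose: Rxra, the partner of many nuclear receptors in hepatocytes, went from 55.4 ± 0.884 to 67.2 ± 0.812 FPKM (0.34 ± 0.04 as log2 with its SE, adjusted p = 0.000595 in edgeR). Rxrb went the other way, from 6.34 ± 0.375 to 5.34 ± 0.253 FPKM with no overlap between groups. Its difference of -0.19 ± 0.06 as log2 with its SE did not pass (adjusted p = 0.0583, edgeR). It was called in 8 of 19 alternatives. Rarb, a known target of retinoic acid, was low, with 34 to 112 estimated counts per library, and was at 0.150 ± 0.0484 and 0.260 ± 0.0444 FPKM. Its groups had no overlap, but its difference of 0.83 ± 0.30 as log2 with its SE did not pass (adjusted p = 0.0780, edgeR). Cyp26a1, Rarb and Lrat, like Cat above, were singled out after their values were seen. Of the 5 tested retinoid carriers other than Rbp4, 0 rose and 1 fell, which was Ttr, and 6 more were too low to test. Fabp5 was at 10.1 ± 2.70 FPKM in control and 14.2 ± 1.68 in extract, with overlapping groups. Its difference of 0.55 ± 0.18 as log2 with its SE did not pass (adjusted p = 0.0593, edgeR).

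**Figure D4:**
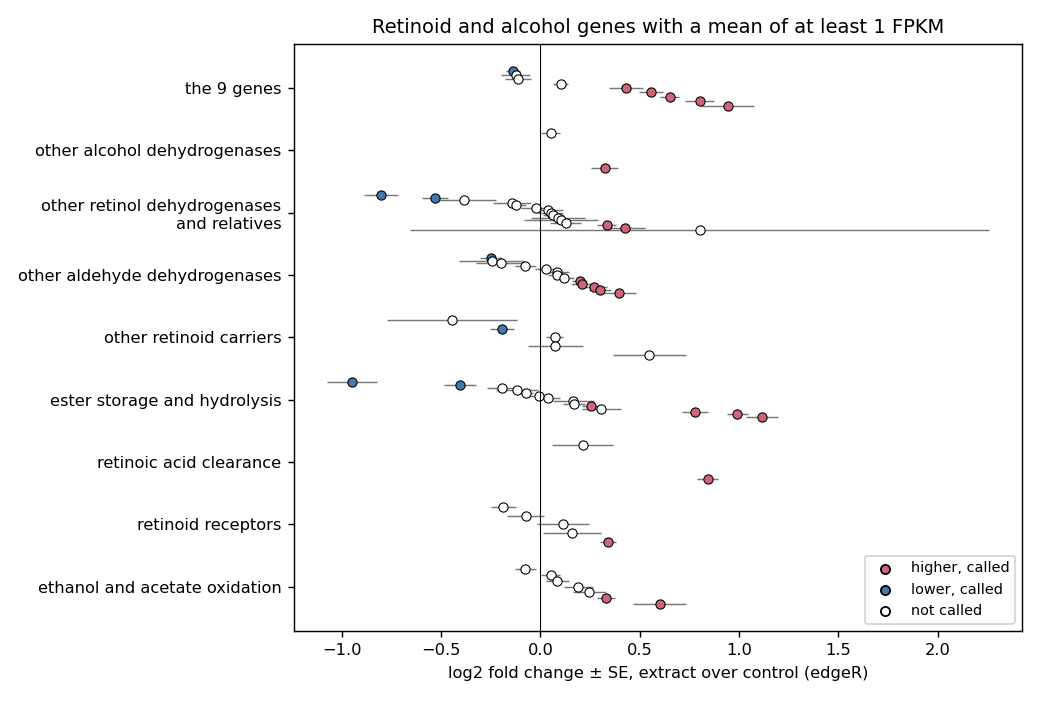
Log2 fold change ± SE (edgeR) of the 9 genes and of the other retinoid and alcohol genes with a mean of at least 1 FPKM, by list. Each point is a gene, red for called higher, blue for called lower and white for not called, and a gene in more than 1 list is drawn in each. The 9 genes run from -0.14 to 0.94, and the ester storage and hydrolysis genes spread from -0.95 to 1.12.

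By pattern over the 6 libraries, the genes most like Adh1 were Aacs, Msmo1, Gbp6, Glyat and Cyp51, with Pearson correlations of log2(FPKM + 0.5) of 0.998 to 0.999. Among 4880 tested genes with a mean of at least 5 FPKM, 529 reached 0.95 with Adh1. The 6 libraries fall into 2 groups, so these correlations mostly describe the group difference. Aacs (acetoacetate to its CoA ester) and the sterol synthesis enzymes Msmo1 and Cyp51 rose too, with log2 fold changes of 1.24, 1.87 and 1.88. Glyat, which conjugates glycine, rose by 0.54 on that scale.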

How the data were processed

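Poly(A) RNA of mouse liver was measured in 6 libraries, per the labels' protocols. Tools named without a role, per the submitters' processing notes, were HISAT2 2.0.4, StringTie 1.3.4d, cutadapt 1.9 and edgeR. Build and strandedness are not given in the sources used here. Values in the deposited table are estimated counts, all whole, and FPKM. Low values of the counts peak at 4 (6292 entries, against 4117 at 3), so 1 read pair may add about 4 counts. The FPKM values are as deposited by the authors. Another 6 columns of per-sample values match no sample and were not used. Of the 9 genes, 8 have the gene span of GENCODE M21 on GRCm38, and Adh4 ends earlier in the table.

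Genes were fitted with edgeR 4.0.16 in R 4.3.3 across all genes (filterByExpr, TMM, quasi-likelihood test, two-sided, Benjamini-Hochberg, threshold 0.05), with SE from the fold change and F. FPKM values are mean ± SD of 3 libraries. The members and lists were chosen with earlier results of these data known. Named genes were all 9 members, up to 6 called genes of each list by p (at least 2) with the most abundant one, relatives within 500 kb, and the 5 genes most correlated with the member of smallest p. Of the pathway genes, Cyp26a1, Rarb, Lrat and Cat were named outside this rule. The steps were tested on simulated counts, drawn from a negative binomial distribution. Those counts had neither the peak at 4 nor a library that stands apart like control 3, so the test does not cover these features. Alternatives used limma 3.58.1 on log2(FPKM + 0.5), DESeq2 1.42.0, other filters and scalings, a replicate block and each library left out.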

Additional observations from a re-analysis of the deposited data

How the results depend on the processing

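Over 19 alternatives, Adh1, Adh4, Rdh11 and Aldh1a1 were called higher in all 19 and Aldh1a7 in 18 (limma on log2(FPKM + 0.5) with no filter on low values gave adjusted p = 0.0613), and none of the 9 genes changed direction. Log2 fold changes ran from 0.59 to 0.69 for Adh1, 0.73 to 0.88 for Adh4, 0.80 to 1.09 for Rdh11, 0.49 to 0.61 for Aldh1a1 and 0.34 to 0.50 for Aldh1a7. Rdh7 was called in 14, Rbp4 in 2, and Rdh16 and Dhrs4 in 0. The number of the 9 genes called higher was 5 or 6 with each library left out, and the number called lower 0 or 1. With the replicate number as a replicate block, 0 of the 9 genes were called lower (Rdh7 adjusted p = 0.0788) and 5 higher, and the calls over all genes went from 4870 to 3746. Libraries of the same number did not deviate together from their group means (correlations of -0.12, -0.03 and -0.09), so the numbers were not taken to pair them. The calls over all genes were 2507 among genes with a mean of at least 5 FPKM, where fewer genes were tested, and 3237 to 4706 with each library left out, the lowest without extract 2. Of the calls, 52.6% were higher, against 40.2% with limma on log2(FPKM + 0.5), and 50.7% after TMM factors on the FPKM, an alternative added after the data were seen. For the 34 other named genes, 37 of 623 values lost a call, 11 gained one and 8 reversed, all of genes not called: Adh5 was at -0.0093, -0.0093 and -0.0092 with limma on log2(FPKM + 0.5), log2(FPKM + 0.1) and log2(FPKM + 1) and at -0.0093 with no filter. With a library left out, Adh6b ranged from -0.25 to 1.43 and Rdh18-ps from -0.034 to 0.43. The causes were not tested. The 9 genes hold at least 1573 estimated counts in each library, and the part of depth in their spread was not tested.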
